A study of Mus musculus with 11 samples.

Results

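The 10 genes described here belong to the integrated stress response and to the synthesis of serine and its 1-carbon products: Atf4, Ddit3, Atf3, Trib3, Chac1, Sesn2, Asns, Psat1, Phgdh and Shmt2. They were chosen by name from textbook knowledge of the pathway, with earlier results of these data known. All 10 are among the 29686 gene names of the 5 single-cell tables together, and 9 of them, all but Atf3, are among the 12588 genes of the bulk table. The cells came from mouse embryonic stem (ES) cell lines. The bulk arm compared 3 libraries of cells embedded in agarose microgels with 3 libraries of cells on tissue-culture plastic. All these libraries are labelled wild type, of a line whose genotype is given as Rex1GFPd2. All were in 2i/LIF, the cytokine LIF with inhibitors of MEK and GSK3. Each was made by Smart-seq2 from about 1000 cells. Single-cell sequencing by inDrop, a droplet method that counts transcripts by unique molecular identifiers (UMIs), gave 1 library for each of 5 conditions. Wild-type cells, genotype E14, gave 3 of them: cells on plastic in serum/LIF, called the serum control here, cells on plastic in 2i/LIF, and cells in gel with serum/LIF. The other 2 came from lines of the genotypes PGHIGH and PGLOW, given as overexpressing plakoglobin (Jup) at a high and a low level from the constitutive CAG promoter and grown on plastic with serum/LIF. Their parent line is not named, nor whether each is 1 clone. The cytokine is common to all 11 samples.

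When cells lack amino acids, load unfolded protein in the endoplasmic reticulum or meet other stresses, kinases phosphorylate the translation factor eIF2, which lowers most protein synthesis while favouring translation of the ATF4 messenger RNA. ATF4, a bZIP transcription factor, then binds with partners at composite C/EBP-ATF sites and raises genes of amino acid synthesis, uptake and tRNA charging, together with factors that feed back on the response. The enzymes of the serine pathway are among its known targets, and much of ATF4's regulation is at translation, which transcript counts do not show.

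The promoters of 4 members held a match to TGATGNAA, the core of that composite site, on either strand within 250 bases before to 50 bases after the start, in RefSeq sequence on GRCm38.p6. All 10 members had a promoter there, so the share was 40.0%, against 4.51% of the 27025 genes with a promoter. These windows are printed because they show how the letters and the place of the match vary among the members. They are written 5′ to 3′ on the gene's strand, with the match in capitals.

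Asns, chr6:7693210-7693258, minus strand: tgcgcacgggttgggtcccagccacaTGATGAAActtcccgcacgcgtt

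Atf3, chr1:191183410-191183469, minus strand: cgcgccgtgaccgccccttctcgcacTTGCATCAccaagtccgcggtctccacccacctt

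Chac1, chr2:119351023-119351082, plus strand: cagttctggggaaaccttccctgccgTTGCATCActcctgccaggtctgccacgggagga

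Trib3, chr2:152344028-152344057, minus strand: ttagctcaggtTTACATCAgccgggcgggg

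In Asns the match read on the gene's own strand and began 23 bases before the RefSeq start, while in the other 3 genes it lay on the opposite strand. Counted from the RefSeq start of each window, it began 110 bases before the start in Atf3 and 193 bases before it in Chac1, and at base 15 of the transcript in Trib3. The outermost starts in GENCODE M21, whose gene positions are printed further on, differ from these: by them the Asns match lies inside the gene, the Trib3 match before it, the Atf3 window far inside it, and the Chac1 match before it as in RefSeq. The Atf3 and Chac1 matches have the same 8 letters. A match is a description of letters, and the 6 members without one merely lack these letters in this window.

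Library facts that touch the results are given first. Recovered reads ranged from 707718 to 866721 in the gel libraries and from 637235 to 2583256 in the plastic ones. Cells with at least 1000 UMIs numbered 725 in the serum control, 2889 in 2i/LIF, 112 in gel, 1200 for the library labelled JupLow and 2153 for the one labelled JupHigh, with 236195 to 8284254 UMIs in all and no cell barcode in common. In the same order, the deposited barcodes numbered 8317, 4697, 891, 8513 and 4688, so the share kept differed widely. In the serum control, barcodes under 500 UMIs held 2170169 UMIs, against 2017950 in the cells used. Jup itself was at 36.7 CPM (UMIs per 1000000 UMIs) in the serum control, with an interval from 28.8 to 46.0, at 37.9 (31.1 to 45.7) in the library labelled JupLow and at 47.8 (41.5 to 54.8) in that labelled JupHigh, so the 3 intervals overlapped. Wild-type cells in 2i/LIF had Jup at 46.7 CPM (42.2 to 51.6), close to the library labelled JupHigh, and cells in gel had 38.1 (17.4 to 72.3), so the lines are named by their labels only. Whether these counts include transcripts made from the CAG promoter was not tested, so they do not decide whether Jup was overexpressed. The serum control's table stood apart: Sox2, a defining ES cell gene, had 0 UMIs there against 165 to 352 CPM in the other 4 libraries. Of 8348 genes at 20 CPM or more in some library, 571 (6.84%) were at least 1.5-fold above every other library in that table and 494 (5.92%) at least 1.5-fold below. Of genes sharing exon bases with another gene, 10.2% were above and 11.4% below, against 5.04% and 3.00% of genes sharing none. The other ES cell markers were detected in every library, and the 10 together summed to 2333 CPM in the serum control, 3827 in 2i/LIF, 3285 in gel, 4531 in the library labelled JupHigh and 2609 in that labelled JupLow. The 10 primitive endoderm markers summed to 1815 CPM in the serum control against 247 to 492 in the others, where at most 2 of the 10 were at 0. Fibroblast markers summed to 3.02 to 39.2 CPM, trophoblast to 32.7 to 52.1, neural to 60.5 to 189 and mesoderm to 3.82 to 12.7. In bulk all 10 ES markers were in the table and summed to 7876 to 8179 in gel and 6031 to 6896 on plastic. Dppa5a made up most of these sums, with means of 5545 in gel and 3879 on plastic. Of the 10, 6 were higher in gel and 3 lower (Nanog, Zfp42 and Sall4) at adjusted p under 0.05 (limma), against 18.3% and 18.6% of all tested genes. The 2 of 10 endoderm markers present were at 221 to 245 in gel and 194 to 225 on plastic, and no fibroblast or mesoderm marker was in the table. The 3 neural markers in it summed to 60.5 to 68.8 in gel and 88.8 to 97.2 on plastic. The part of these marker differences in the members' values was not tested.

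Growth in gel was compared with growth on plastic in the bulk libraries. Asns, the enzyme that makes asparagine, fell in gel, while Atf4 and Sesn2, a sestrin that restrains mTORC1 when leucine is short, rose. The serine enzymes Psat1, Phgdh and Shmt2 and the pseudokinase Trib3 did not pass the test. So 3 of the 7 tested members were called, 2 higher and 1 lower, against 36.9% of the 7878 tested genes (18.3% higher and 18.6% lower). The same 3 members had groups that did not overlap, which 49.5% of all tested genes had. The median log2 fold change over the 7 was -0.06, beside -0.02 over all tested genes. The values are deposited gene counts divided by a factor per library, and fold changes are on the scale of log2(value + 0.5), which understates those of low genes. Nothing in the labels says that the replicates came from separate cultures, so the p-values measure only the spread between these samples, which may be technical. In such pools fewer cells expressing a gene and less RNA per cell cannot be told apart.

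Among the transcription factors, Atf4 (chromosome 15, 80255184 to 80257541, plus strand, in GENCODE M21 on GRCm38, as all gene positions below) had 178.3, 192.8 and 158 in gel and 132.6, 115.4 and 129 on plastic. Every gel library lay above every plastic one. The means were 176 ± 17.5 (SD, n = 3) and 126 ± 9.05, which on the log2 scale is a fold change of 0.48 (SE 0.13, adjusted p = 0.00616, limma with Benjamini-Hochberg adjustment). Ddit3 (chromosome 10, 127290774 to 127296288, plus strand), which encodes the pro-apoptotic factor CHOP, was too low to be tested: 11, 8 and 2 recovered reads in gel and 20, 14 and 7 on plastic. Its deposited values, 2.75 to 12.4 and 5.48 to 10.6, overlapped. It shares 68 exon bases with Mars, the methionyl-tRNA synthetase gene on the opposite strand, and whether the counting used strand is not given in the sources used here. All 105 exon bases of a second annotated Ddit3 entry, on the same strand, also lie within the exons of the first.

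Of the feedback genes, Sesn2 (chromosome 4, 132492032 to 132510501, minus strand) had 31.6, 28.24 and 37.1 in gel and 17.04, 18.39 and 19.73 on plastic. The groups were apart although each value rests on few reads, 13 to 47 a library. On the log2 scale the difference came to 0.79 (SE 0.23, adjusted p = 0.0129, limma). It did not pass when all libraries were thinned to 637235 reads (0.72, adjusted p = 0.0769) or without the first plastic library (0.74, adjusted p = 0.0552). Trib3 (chromosome 2, 152337422 to 152344032, minus strand), which binds ATF4 and dampens it, had 31.6, 25.78 and 17.86 in gel and 25.35, 19.96 and 31.88 on plastic, groups that overlapped throughout (log2 fold change -0.05, SE 0.26, adjusted p = 0.903, limma). Chac1 (chromosome 2, 119351229 to 119354381, plus strand), whose product degrades glutathione, had 5 to 20 recovered reads a library and was not tested. Its values were 7.9, 22.1 and 6.87 in gel and 7.07, 7.83 and 13.7 on plastic, with 1 high library in each group.

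Asns (chromosome 6, 7675169 to 7693254, minus strand), whose promoter match is the one on the gene's own strand, was the most abundant member per length of exon. On plastic it stood at 501 ± 19.4 (SD, n = 3) per kilobase, against 108 ± 8.74 for Psat1, 59.4 ± 6.20 for Shmt2 and 53.3 ± 3.84 for Atf4, and the last pair lay within their spread. The other members were at 4.75 to 47.7 per kilobase. Its deposited values were 797.9, 965.1 and 904.2 in gel and 1410, 1390 and 1310 on plastic. All gel libraries were below all plastic ones, with means of 889 ± 84.6 and 1370 ± 53.0 (log2 fold change -0.63, SE 0.093, adjusted p = 6.36e-05, limma). Among the tested members its adjusted p was the smallest and its SE the narrowest.

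Psat1 (chromosome 19, 15904678 to 15947337, minus strand), the phosphoserine aminotransferase, had 411.9, 505.9 and 408.1 in gel and 451.7, 426.1 and 499.4 on plastic, for a log2 fold change that came to -0.06 (SE 0.11, adjusted p = 0.705, limma). Phgdh (chromosome 3, 98313170 to 98339990, minus strand), which commits glycolytic carbon to serine, had 94.8, 115.4 and 71.45 in gel and 111.8, 122.5 and 121.4 on plastic. Only the second gel library reached into the plastic range. Its log2 fold change was -0.36 (SE 0.16, adjusted p = 0.0837, limma), and without that library it was -0.52 and passed (adjusted p = 0.0210), while without the third gel library it was -0.18 (adjusted p = 0.362). Shmt2 (chromosome 10, 127517123 to 127522444, minus strand), the mitochondrial enzyme that turns serine into glycine, had 137.7, 187.9 and 164.9 in gel and 201.1, 163.6 and 189.8 on plastic, and it shares 32 exon bases with Ndufa4l2 on the opposite strand. Its groups overlapped, and its log2 fold change was -0.18 (SE 0.13, adjusted p = 0.302, limma), between -0.29 without the second gel library and -0.06 without the first. For Trib3 and Psat1 the sign depended on which library was left out, with log2 fold changes from -0.23 to 0.17 and from -0.16 to 0.00.

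**Figure D1:**
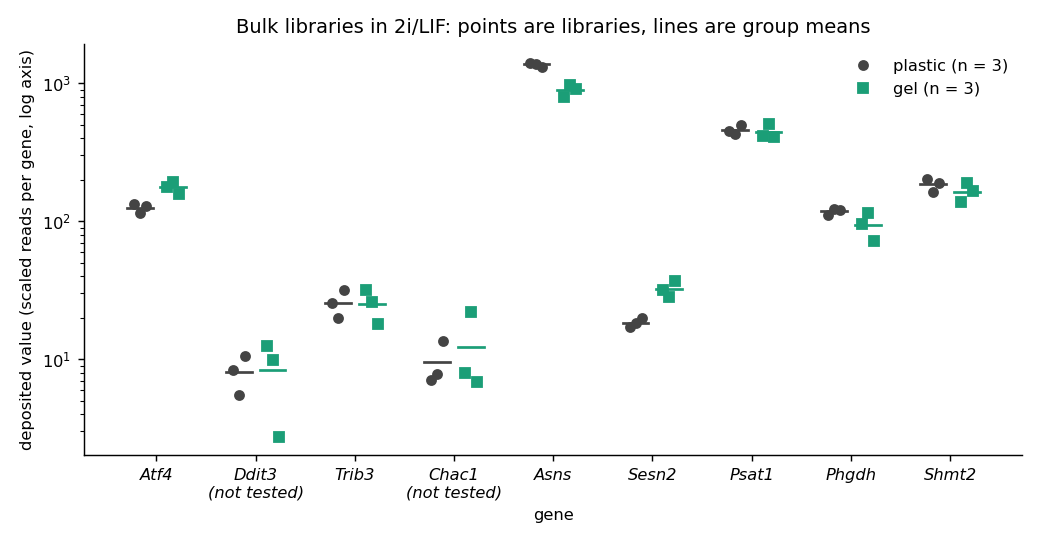
Deposited values of the 9 members in the bulk table on a log axis, 1 point a library and a line at each group mean, for 3 plastic and 3 gel libraries. Groups stand apart for Atf4, Sesn2 (both higher in gel) and Asns (lower in gel), and overlap for the other 6.

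The rest of the pathway was read from lists of genes by role, whose counts stand beside 18.3% of all tested genes higher and 18.6% lower in gel. Of the 20 cytosolic aminoacyl-tRNA synthetases, which charge tRNAs with amino acids, 12 fell in gel, 1 rose and 7 did not pass (median log2 fold change -0.40, limma). Lars fell by 0.94, Dars by 0.81, Cars by 0.77 and Mars by 0.74 on the log2 scale. The other arms of the unfolded protein response had 8 of 16 tested genes lower, 2 higher and 6 not called (median -0.33): Hspa5, the chaperone BiP, fell by 1.04, Sel1l by 1.13 and Edem1 by 0.91, while Hyou1 rose by 1.01. Of 14 tested sensors, subunits of eIF2 and eIF2B and regulators of these, 6 fell and 0 rose (median -0.24). Impact, which inhibits the amino acid sensor GCN2, fell by 1.46, Eif2b3 by 0.89, Ppp1r15a, a subunit that directs eIF2 dephosphorylation, by 0.71 and Eif2s2 by 0.54.

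With the same shares of all genes, 18.3% higher and 18.6% lower, as background, of the 9 tested amino acid transporters 4 rose, 1 fell and 4 did not pass (median 0.34). Slc7a5, of the leucine exchanger, rose from 6.33 to 36.2 (log2 fold change 2.66), Slc7a1, the arginine transporter, rose by 1.68 and Slc38a1 rose by 0.62, while Slc43a1 fell from 27.7 to 4.87 (-2.67). The lower side of the 2 largest changes rests on few recovered reads: 8, 9 and 8 for Slc7a5 on plastic. Slc43a1 had 7, 1 and 4 in gel. Of 16 serine, glycine and 1-carbon enzymes beyond the members, 2 rose and 5 fell (median -0.13). Gldc rose by 0.87, while Cbs fell by 0.58, Mthfd1 by 0.58 and Amt by 0.47. Of 8 genes for proline, alanine and aspartate synthesis 2 rose, among them Got2 by 1.14, and 0 fell (median 0.25). Only 4 of the 14 stress and signalling targets of ATF4 were tested, and 1, Sqstm1, was called (-0.30). Of 3 tested bZIP partners, Nfe2l2 fell by 0.67 and Nfe2l1 rose by 0.66. The mitochondrial chaperones and proteases had 2 of 8 higher and 2 lower, and the immediate early and heat shock genes 1 of 4 higher (Ier2, 1.09) and 1 lower (Hsph1, -0.44).

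**Figure D2:**
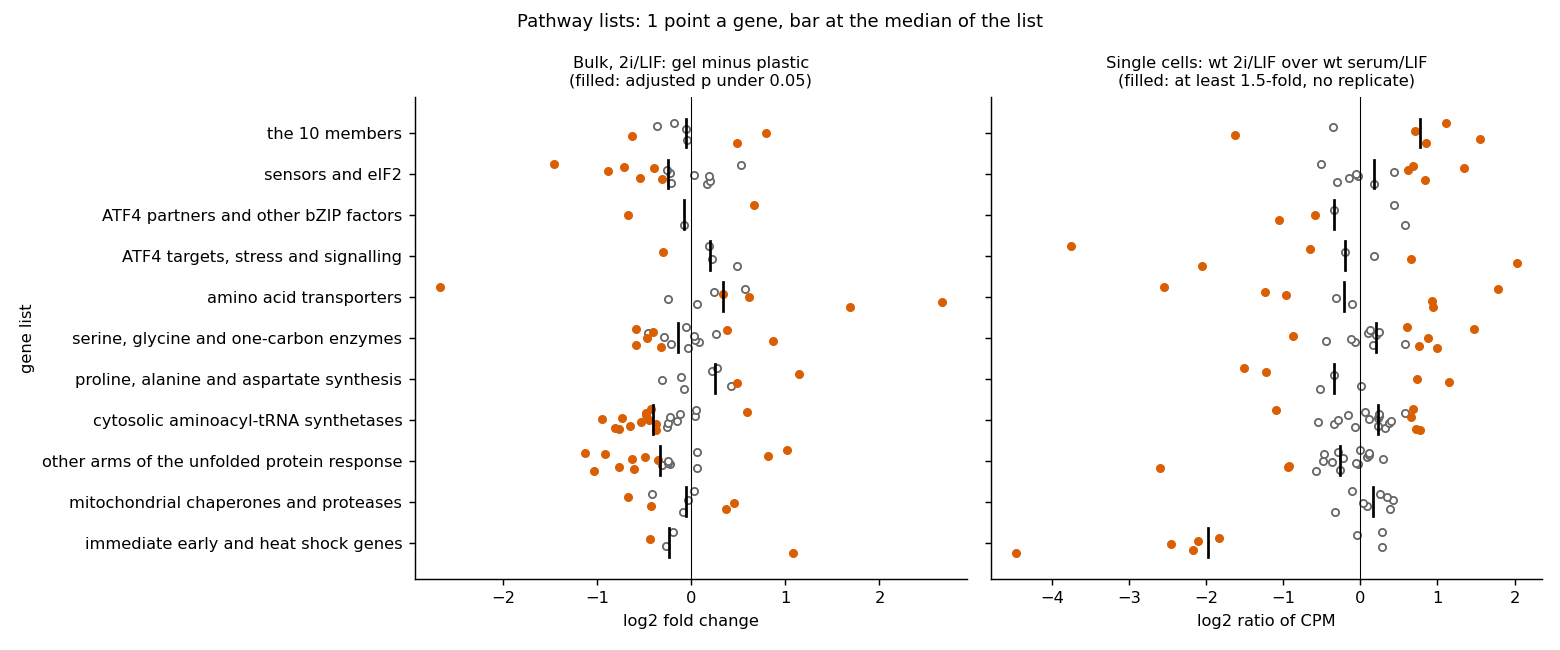
Log2 differences of the members and of 10 pathway lists, 1 point a gene and a bar at each list's median: gel minus plastic in bulk on the left, 2i/LIF over the serum control in single cells on the right. The tRNA synthetases lie mostly below 0 on the left (median -0.40), and the immediate early and heat shock genes reach lowest on the right (median -1.97).

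Medium was compared in wild-type single cells on plastic. Asns, Shmt2, Atf4 and Psat1 were higher in 2i/LIF than in serum/LIF and Sesn2 was lower, so 5 of the 6 members with at least 20 CPM differed by at least 1.5-fold, 4 higher and 1 lower. Of the 7693 genes at that level, 43.4% did (19.8% higher and 23.6% lower). The median log2 ratio over the 6 was 0.78, beside -0.02 over all genes. With 1 library a condition there is no replicate check and no test here or in any single-cell comparison below, and the intervals, exact at 95%, cover counting error only. The serum control is shared by this comparison and the 3 others made against it.

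Atf4 had 151 CPM in 2i/LIF (143 to 160) and 83.7 in serum/LIF (71.6 to 97.4), a 1.80-fold difference (log2 ratio 0.85, 0.62 to 1.09). Asns had 194 CPM (185 to 204) against 65.9 (55.2 to 78.1), or 2.94-fold (log2 ratio 1.56, 1.30 to 1.82). Its level in 2i/LIF was above that of the other 4 libraries, with intervals that do not meet. Shmt2 had 126 CPM (118 to 133) against 58.0 (47.9 to 69.5), a log2 ratio of 1.11 (0.84 to 1.40), and Psat1 had 174 (165 to 184) against 107 (93.2 to 122), a log2 ratio of 0.70 (0.50 to 0.92). Phgdh, the first enzyme of the same path, was not higher: 27.0 CPM (23.6 to 30.8) against 34.7 (27.0 to 43.8), with an interval of the log2 ratio from -0.75 to 0.05. With every deposited barcode counted, the Psat1 log2 ratio was 0.39, short of 1.5-fold.

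Low members went both ways. Trib3 had 14.8 CPM (123 UMIs) in 2i/LIF and 3.47 (7 UMIs) in serum/LIF, a log2 ratio of 2.10 (1.01 to 3.44). Chac1 had 47 UMIs against 3 (log2 ratio 1.93, 0.30 to 4.26). Atf3 (chromosome 1, 191170296 to 191218039, minus strand), which is among the factors induced early by many stresses, had 2 UMIs in 2889 cells in 2i/LIF (0.241 CPM) against 9 in 725 cells (4.46 CPM), a log2 ratio of -4.21 (-7.46 to -1.94). Of those 9 UMIs, 5 lay in the 153 cells with endoderm UMIs described next, which held 569317 of that library's 2017950 UMIs. Without such cells the ratio was -3.36. Ddit3 had 31 against 12 UMIs, and the interval of its log2 ratio, -1.67 to 0.43, held 0; without the same cells the ratio turned from -0.67 to 0.17. None of these 4 reached 20 CPM in either library.

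Sesn2 was at 177.9 CPM (160 to 197) in the serum control and at 57.5 (52.4 to 62.9) in 2i/LIF, a log2 ratio of -1.63 (-1.83 to -1.43). It was the only member at least 1.5-fold above every other library in that table, a pattern that 6.84% of genes shared, and it shares no exon bases with another gene. Shmt2 and Ddit3 do share exon bases, as given above, and the part of this in their ratios to the serum control was not tested. The cells of that library with at least 3 primitive endoderm UMIs, 153 in number, held Sesn2 at 156 CPM (125 to 192), and the other 572 cells held it at 186 (165 to 210). A cutoff on raw UMIs also picks deeper cells: the median was 3225 UMIs in the 153 cells and 2214 in the other 572. In 2i/LIF the same rule marked 181 cells, with a median of 4494 UMIs against 2290. Endoderm cells of low depth can stay unmarked, so the rule does not part endoderm cells from the rest. Leaving out the marked cells in every library gave a log2 ratio of -1.72 for Sesn2, 0.97 for Atf4, 1.62 for Asns, 0.80 for Psat1 and 1.14 for Shmt2. With them the ratios were -1.63, 0.85, 1.56, 0.70 and 1.11. How far the make-up of the serum control's table contributes to the Sesn2 level was not tested.

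**Figure D3:**
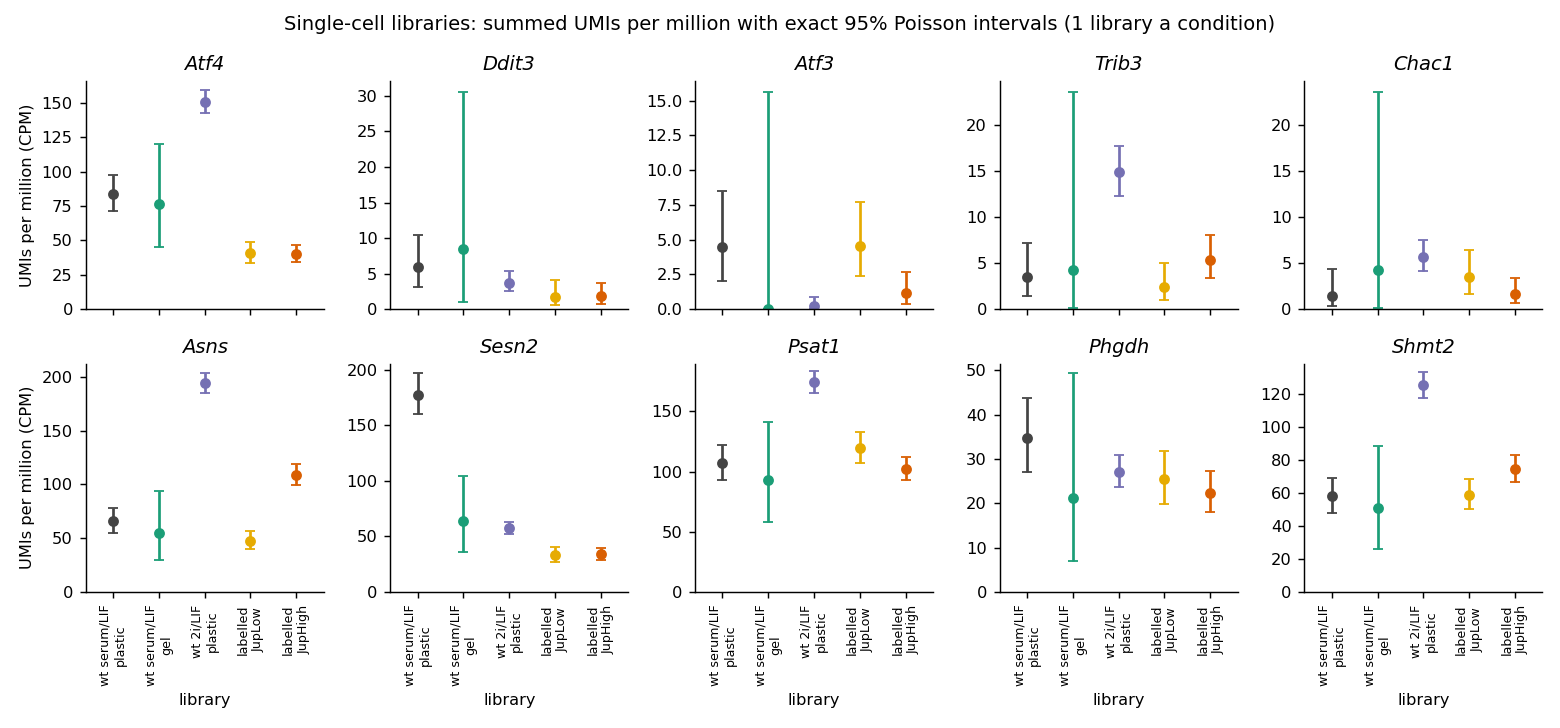
Levels in CPM of the 10 members in each of the 5 single-cell libraries, with exact 95% Poisson intervals and axes from 0. Asns, Shmt2, Psat1 and Atf4 peak in 2i/LIF, Sesn2 peaks in the serum control at 177.9 CPM, and the gel library of 112 cells has the widest intervals.

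In the rest of the pathway, where 19.8% of all genes were higher and 23.6% lower by at least 1.5-fold, 5 of 15 serine, glycine and 1-carbon enzymes at 20 CPM or more were higher in 2i/LIF and 1 lower (median log2 ratio 0.20). Cbs (1.48), Psph, which completes serine synthesis (0.99), and Amt (0.88) were higher and Dld lower (-0.87). Of 11 sensors and eIF2 genes 4 were higher, with Eif2b5 at 1.34 and Eif2s2 at 0.83, and 0 lower. The 20 tRNA synthetases had 4 higher and 1 lower (median 0.23): Aars (0.77), Cars (0.72) and Yars (0.68) against Wars (-1.09). Transporters were divided, 3 higher and 3 lower of 8, with Slc1a5, the glutamine carrier, at 1.78 and Slc7a6 at -2.55. Of the 7 stress and signalling targets 2 were higher, Nupr1 (2.04) and Cdkn1a (0.66), and 3 lower, among them Bcl2l11 (-3.75) and Ddit4 (-2.05). Immediate early and heat shock genes had 5 of 8 lower and 0 higher (median -1.97), with Jun at -4.47, Ier3 at -2.45, Junb at -2.17 and Dusp1 at -2.11. The other arms of the unfolded protein response had 3 of 17 lower, Ern1 by most (-2.60), and 0 higher. Of 7 genes for proline, alanine and aspartate synthesis 2 were higher, Gpt2 (1.15) and Got1 (0.74), and 2 lower, among them Glul (-1.22). Of 5 bZIP genes Atf2 (-1.06) and Jund (-0.58) were lower, and none of 8 mitochondrial chaperones and proteases differed by 1.5-fold. All these list ratios are to the serum control's table, which stood apart, and its part in them was not tested.

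Gel was compared with plastic in serum/LIF in wild-type single cells. Sesn2 was lower in gel, at 63.5 CPM (35.5 to 105) against 177.9, a log2 ratio of -1.49 (-2.34 to -0.74), and it was the only member whose interval left out 0. This ratio rests on the serum control's table, in which Sesn2 stood above all other libraries. On plastic, Sesn2 was at 57.5 CPM (52.4 to 62.9) in 2i/LIF. In the libraries labelled JupLow and JupHigh it was at 33.4 and 33.9 CPM, so gel was not low beside these. Of the 6 members at 20 CPM, 2 passed 1.5-fold, both lower, against 41.0% of 7662 genes (17.6% higher and 23.3% lower). The other was Phgdh, with 5 UMIs in gel (log2 ratio -0.71, -2.38 to 0.58). Atf4 had 76.2 CPM in gel (45.2 to 120) against 83.7, Asns 55.0 (29.3 to 94.1) against 65.9, Psat1 93.1 (58.4 to 141) against 107 and Shmt2 50.8 (26.2 to 88.7) against 58.0. For these 4 the interval of the log2 ratio held 0 and ran from -0.93 to 0.57, -1.21 to 0.56, -0.90 to 0.43 and -1.18 to 0.67, so differences of the size that Atf4 and Asns had in bulk were not detectable at this depth. Ddit3, Trib3 and Chac1 had 1 or 2 UMIs in gel. Atf3 had 0, and 3 counts there would be 12.7 CPM. The median over the 6 members was -0.23, beside -0.04 over all genes. Endoderm markers were lower in gel for all 8 at 20 CPM, and leaving out cells that hold at least 3 such UMIs left the Sesn2 log2 ratio at -1.50.

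Few UMIs stand behind the pathway lists in gel, which are set beside 17.6% of all genes higher and 23.3% lower. The serine, glycine and 1-carbon enzymes had 4 of 15 lower by at least 1.5-fold and 0 higher, of which Gcsh alone had an interval that left out 0 (log2 ratio -1.06, -1.99 to -0.25). Of the 20 tRNA synthetases 1 was higher, Iars (0.75, 0.15 to 1.32), and 2 lower, Wars (-1.72, -3.05 to -0.65) and Cars (3 UMIs). The 9 transporters were divided, 3 higher and 4 lower, with Slc7a1 at -1.45 (-3.10 to -0.19) in contrast to its rise in bulk, a difference that was not tested. Of 18 genes of the other unfolded protein response arms 3 were lower and 1 higher, Dnajb9 (1.61, 0.40 to 2.69). These list ratios too are to the serum control's table that stood apart.

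The lines labelled as overexpressing Jup were each compared with the serum control. Atf4 and Sesn2 were lower in both, at nearly equal levels in the 2 lines, whereas Asns was higher in the library labelled JupHigh and short of 1.5-fold in that labelled JupLow. In the order JupLow, then JupHigh, Atf4 had 41.0 CPM (33.9 to 49.1) and 40.1 (34.4 to 46.6) against 83.7 in the serum control, log2 ratios of -1.03 (-1.38 to -0.68) and -1.06 (-1.38 to -0.75). Sesn2 had 33.4 (27.0 to 40.7) and 33.9 (28.6 to 39.8) against 177.9, with log2 ratios of -2.42 (-2.76 to -2.09) and -2.39 (-2.68 to -2.11). Both ratios rest on the serum control table in which Sesn2 stood above all other libraries. Asns had 47.6 CPM (40.0 to 56.3) and 108.6 (98.9 to 119) against 65.9, log2 ratios of -0.47 (-0.82 to -0.11) and 0.72 (0.44 to 1.01). The first of these did not reach 1.5-fold and lay between -0.53 and -0.17 over the alternative settings. Mitochondrial transcripts made up 11.4% and 14.8% of UMIs in the 2 libraries against 10.5% in the serum control. ES cell markers summed to 2609 and 4531 CPM against 2333. These sums include Sox2, at 207 and 352 CPM in the 2 libraries and at 0 UMIs in the serum control. The part of either in these ratios was not tested.

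Of the 6 members at 20 CPM, 2 differed from the serum control by at least 1.5-fold in the library labelled JupLow, both lower, against 23.8% of 7377 genes (13.2% lower). In that labelled JupHigh, 4 did, 1 higher and 3 lower, against 39.7% of 7371 genes (13.4% higher and 26.3% lower). The medians over the 6 were -0.46 and -0.35, beside 0.00 and -0.17 over all genes. The third lower member there was Phgdh at 22.3 CPM (18.0 to 27.2) against 34.7 (log2 ratio -0.64, -1.10 to -0.17), close to the 1.5-fold threshold. Over the 9 alternative settings its log2 ratio ran from -0.70 to -0.36, the last under TMM factors and short of 1.5-fold. In the library labelled JupLow, Phgdh had 25.4 CPM and an interval from -0.94 to 0.04, and without endoderm-marked cells its log2 ratio was -0.64, past 1.5-fold. Psat1 had 119.5 and 102.3 CPM against 107 and both intervals held 0, as did that of Shmt2 in the library labelled JupLow (59.1 CPM). Shmt2 in that labelled JupHigh was at 74.5 CPM (66.5 to 83.1), a log2 ratio of 0.36 (0.05 to 0.68). Over the 9 alternative settings this ratio ran from 0.34 to 0.64, and the upper end is past 1.5-fold.

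In the same order, Ddit3, far below 20 CPM in every library, had 5 and 8 UMIs against 12 in the serum control (log2 ratios -1.78, -3.63 to -0.17, and -1.68, -3.18 to -0.27). Atf3 was at 4.52 CPM (13 UMIs) in the library labelled JupLow, level with 4.46 in the serum control, and at 1.16 (5 UMIs) in that labelled JupHigh (log2 ratio -1.94, -3.87 to -0.21). Trib3 and Chac1 had 7 to 23 UMIs in the 2 libraries and intervals that held 0. Endoderm markers were lower than in the serum control in both, for all 8 at 20 CPM. Without cells holding 3 or more such UMIs the Atf4 log2 ratios were -1.04 and -0.99, those of Sesn2 -2.44 and -2.49, and those of Asns -0.41 and 0.76. For Ddit3, 7 of the 12 UMIs of the serum control lay in its 153 endoderm-marked cells, which held 569317 of its 2017950 UMIs of all genes. Without these cells the log2 ratios were -1.04 and -0.87, from 4 and 8 UMIs against 5, and the intervals of the levels overlapped (0.457 to 4.29 and 0.817 to 3.73 CPM against 1.12 to 8.05).

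The lists are read against the shares of all genes given above, 39.7% past 1.5-fold in the library labelled JupHigh and 23.8% in that labelled JupLow. In the latter, none of 11 sensor and eIF2 genes or 8 mitochondrial genes was past 1.5-fold. The same held for 6 genes for proline, alanine and aspartate and for 8 immediate early and heat shock genes. Of 20 tRNA synthetases 2 were lower, Cars (-0.92) and Wars (-0.91). Of 14 serine, glycine and 1-carbon enzymes Gldc was higher (0.66) and Dld lower (-0.99), and of 5 bZIP genes Cebpb (0.83) and Jund (0.81) were higher and Nfe2l2 lower (-1.13). Transporters had 1 of 8 higher and 1 lower, the other unfolded protein response arms 2 of 17 lower and 0 higher, and the stress and signalling targets 1 of 6 lower, Cdkn1a (-0.59), and 0 higher. In the library labelled JupHigh, the stress and signalling targets had 4 of 6 lower and 0 higher (median log2 ratio -1.50), with Ddit4 at -1.90, Bcl2l11 at -1.79, Tnfrsf10b at -1.72 and Cdkn1a at -1.28. Immediate early and heat shock genes had 5 of 8 lower and 1 higher there, Ier3 by most (-2.75) and Jun next (-2.33). Of 18 genes of the other unfolded protein response arms 6 were lower and 1 higher, among them Ern1 (-2.73), Manf (-0.92) and Hspa5 (-0.91), with 26.3% of all genes lower in this comparison. The 14 serine, glycine and 1-carbon enzymes had Shmt1 (0.93) and Gldc (0.63) higher and Dld lower (-0.87), and of the 20 tRNA synthetases Wars alone was lower (-1.21). Wars was lower by at least 1.5-fold in every library set against the serum control, and Dld and Ern1 were also lower in 2i/LIF. All these ratios rest on the serum control's table, which stood apart, and its part in them was not tested.

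The 2 labelled lines were then set against each other, a comparison that does not use the serum control. Asns was the 1 member of the 6 at 20 CPM that differed by at least 1.5-fold, 2.28-fold higher in the library labelled JupHigh (log2 ratio 1.19, 0.91 to 1.48), against 25.5% of 6953 genes (7.33% higher and 18.2% lower). The median over the 6 was 0.00, beside -0.13 over all genes. The Asns log2 ratio lay between 0.89 and 1.30 over the 9 alternative settings. Shmt2 was slightly higher (0.33, 0.06 to 0.61) and Psat1 slightly lower (-0.22, -0.43 to -0.02). For Atf4 the interval was -0.38 to 0.32, for Sesn2 -0.36 to 0.41 and for Phgdh -0.64 to 0.27. Atf3 was lower, with 5 against 13 UMIs (log2 ratio -1.96, -3.80 to -0.38). Markers of ES cells summed to 4531 CPM in the library labelled JupHigh and to 2609 in that labelled JupLow, neural markers to 60.5 and 189 CPM, and mitochondrial transcripts made up 14.8% and 11.4% of UMIs. Their part in the Asns ratio was not tested.

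Of the lists in this comparison, in which 7.33% of all genes were higher and 18.2% lower, the stress and signalling targets had 4 of 6 lower in the library labelled JupHigh and 0 higher (median log2 ratio -1.06): Bcl2l11 (-1.80), Tnfrsf10b (-1.77), Ddit4 (-1.42) and Cdkn1a (-0.69). Immediate early and heat shock genes had 4 of 7 lower and 0 higher, with Jun at -2.52, Dusp1 at -2.25, Junb at -1.67 and Hspa1b at -1.09. Of 5 bZIP genes 2 were lower, Cebpb (-1.97) and Jund (-1.83). The tRNA synthetases had 1 of 20 higher, Cars (0.91), and the serine, glycine and 1-carbon enzymes 1 of 14 higher, Shmt1, the cytosolic counterpart of Shmt2 (0.96), and 1 lower, Cth (-0.74). Of 7 genes for proline, alanine and aspartate synthesis 1 was higher, Glul (0.81), and 3 lower, among them Aldh18a1 (-1.01), with a median of -0.31. The other arms of the unfolded protein response had 4 of 17 lower and 1 higher (median -0.35), including Edem1 (-0.85) and Dnajb9 (0.72). The transporters had 2 of 7 lower and 1 higher, and the sensor and eIF2 genes (11) and the mitochondrial genes (8) each had 1 higher and 0 lower.

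**Figure D4:**
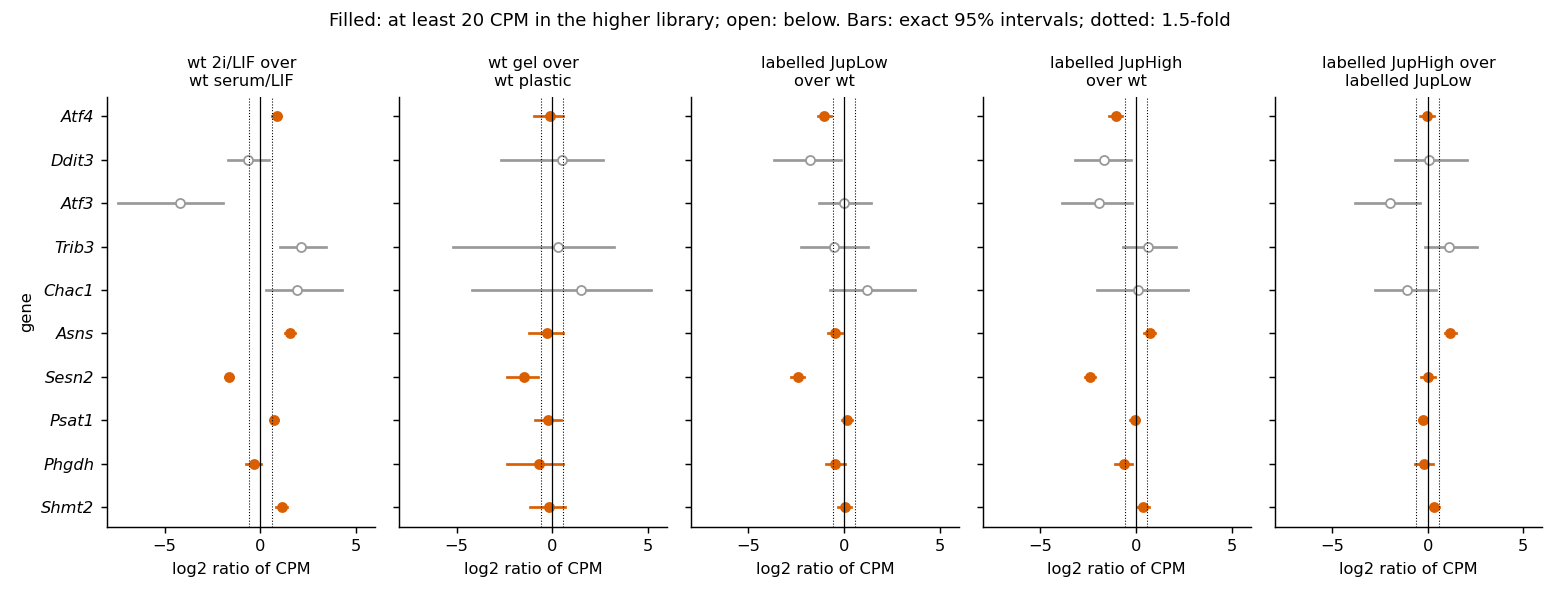
Log2 ratios of CPM of the 10 members in the 5 single-cell comparisons, with exact 95% intervals. Filled points have at least 20 CPM in the higher library, open points less, and dotted lines mark 1.5-fold. Asns lies to the right in 2i/LIF (1.56) and in both ratios of the library labelled JupHigh (0.72 and 1.19), Sesn2 lies to the left in every ratio to the serum control, and Atf3 in gel, with 0 UMIs, has no point.

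Across the 5 libraries each member had its own order. Asns ran from 194 CPM in 2i/LIF over 108.6 in the library labelled JupHigh, 65.9 in the serum control and 55.0 in gel down to 47.6 in the library labelled JupLow, and the intervals of the last 3 overlapped between neighbours. Atf4 ran from 151 in 2i/LIF over 83.7 in the serum control and 76.2 in gel to 41.0 and 40.1 in the labelled lines, and apart from 2i/LIF each interval overlapped that of its neighbour in this order. Psat1 and Shmt2 stood apart in 2i/LIF, and the intervals of neighbours in the order of the other 4 libraries overlapped. For Phgdh all 5 intervals overlapped with their neighbours, between 21.2 and 34.7 CPM. Summed over the 10 members the libraries held 754 CPM in 2i/LIF (735 to 773), 543 in the serum control, 392 in the library labelled JupHigh, 377 in gel (303 to 464) and 338 in that labelled JupLow.

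The same differences were read as shares of cells, with each cell thinned to 1000 UMIs and no cell left out. A UMI of any member was seen in 52.0% of cells in 2i/LIF (50.2% to 53.9%, exact binomial interval), 39.9% in the serum control (36.3% to 43.5%), 31.3% in the library labelled JupHigh (29.3% to 33.3%), 28.6% in gel (20.4% to 37.9%) and 26.7% in that labelled JupLow (24.2% to 29.3%). Without thinning the shares were 76.6%, 66.1%, 49.2%, 46.4% and 47.6%. An Asns UMI was in 19.5% of cells in 2i/LIF, 10.5% in the library labelled JupHigh, 6.48% in the serum control, 5.08% in that labelled JupLow and 4.46% in gel. Sesn2 was in 15.0% of serum control cells (12.5% to 17.8%) and in 3.39% to 4.71% of cells elsewhere. Free RNA can give such UMIs too, and no cell type that lacks these genes was at hand to set its level. Barcodes under 500 UMIs held the members at 638 CPM in the serum control, 449 in gel, 604 in the library labelled JupHigh and 458 in that labelled JupLow, in each case above the cells' own sum. Whether these barcodes are empty droplets or poorly captured cells is not known, so their values do not set a level of free RNA. In 2i/LIF only 1 such barcode was deposited.

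Within a library the members were spread thinly. At 1000 UMIs a cell held on average 0.777 member UMIs in 2i/LIF and 0.330 to 0.532 in the other 4 libraries, with a variance of 1.07 to 1.14 times the mean. Cells with 3 or more member UMIs made up 5.33% in 2i/LIF (154 cells), 2.21% in the serum control and 0.833% to 1.30% in the others. Of the 407 cells with an Atf4 UMI in 2i/LIF, 85 also had an Asns UMI, which 563 of the 2889 cells had (Pearson r across cells 0.018). The genes most like the members' sum across cells, by mean Pearson r over the 4 plastic libraries among 1077 compared, were Actb (0.186), Eif5a, Ftl1, Tuba1b, Rps23, Gm26384, Rpl12, Rpl4, Ybx1 and Rpl23 (0.130). These r are low, rest on cells that share library and depth, and describe abundant genes; none of the 10 belongs to the pathway lists.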

How the data were processed

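The members and all gene lists were chosen with earlier results of these data known. Bulk values are a signal: counts that the authors divided by 1 factor a library (judged from the values as deposited), from which whole reads were recovered (100.0% whole within 0.01). Single-cell values are UMI counts per gene and barcode, deposited without normalization. FastQC, STAR, featureCounts, DESeq2 and Scanpy, and the builds mm10 and GRCm38, are named in the submitters' processing notes with no role. Deposited column names of the plastic bulk libraries carry a gel and a plastic mark and were taken as plastic. The second plastic library's title and description give different numbers, and the title was used.

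The bulk contrast used limma 3.58.1, run under R 4.3.3 with an intensity trend, on log2(value + 0.5) for genes passing edgeR 4.0.16's expression filter, with Benjamini-Hochberg adjustment at 0.05. The design had named this test for a normalized unit, with edgeR and DESeq2 1.42.0 on recovered reads as alternatives. Replicates differed by more than sampling noise (chi-square 1.66 to 2.36 per degree of freedom). This fit was tested on simulated data: when 200 of the 7878 genes had a 4-fold change, it recovered 96.5%, 2.03% of calls were false, and 0 genes were called with none changed. Changes of the members' size, at most 0.79 on the log2 scale, were not simulated, nor was a share of changed genes near the 36.9% called.

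Cells are barcodes holding 1000 UMIs or more, with no doublet caller. Barcodes with 8 G at each end, columns without a gene name (0.00509% to 0.499% of UMIs) and 1 truncated row of the gel table were left out. UMIs were summed per library. Poisson, conditional binomial and binomial intervals are exact at 95% (scipy 1.17.1) and cover counting error only. A ratio was read as past the threshold at 1.5-fold with at least 20 CPM in the higher library. All 10 members are named, with up to 4 genes a list and comparison, by size of change among those past the threshold; some are not reported here. Likeness used cells thinned to 1000 UMIs and genes with at least 100 UMIs in each plastic library. Motifs were searched in RefSeq promoters (GRCm38.p6).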

Additional observations from a re-analysis of the deposited data

Results flagged for a closer look

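For 2 of the 3 members called in bulk the difference between gel and plastic had the opposite sign in the single cells. Sesn2 was higher in all 3 gel libraries than in all 3 plastic ones in 2i/LIF (log2 fold change 0.79), and lower in the gel library in serum/LIF single cells (log2 ratio -1.49, -2.34 to -0.74). Atf4 was higher in every bulk gel library (0.48), and its log2 ratio in single cells was -0.14, with an interval of -0.93 to 0.57 that holds the bulk value. That ratio was above 0 with cells of at least 500 UMIs (0.11) or every barcode (0.03). The difference between the contrasts was not tested. Medium, cell line and assay all differ between them and cannot be told apart, and the single-cell ratio has 1 library a side and uses the serum control table that stood apart.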

How the results depend on the processing

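In bulk, 3 members were called, and also under each of the other settings tried on the 6 libraries except thinning, which left 2, and a minimum log2 fold change of 1, which left 0 (and 727 genes in all against 2906). Leaving out 1 library gave 2 to 4. With the replicate block 3 were called. The numbers did not pair the libraries (correlations of deviations -0.0522, 0.0159 and 0.0244, and 1 of 6 libraries correlating best with its own number). Adjusted p over all settings ran from 1.87e-08 to 0.00104 for Asns, 0.0016 to 0.0342 for Atf4 and 0.00651 to 0.0769 for Sesn2. In single cells the number of members past 1.5-fold in gel against plastic was 1 rather than 2 with at least 500 or at least 2000 UMIs a cell. It ran from 4 to 6 in 2i/LIF (6 with Trib3, under a total without overlapping genes), from 2 to 3 in the library labelled JupLow (3 with Phgdh, without endoderm-marked cells), from 3 to 4 in that labelled JupHigh, and was 1 throughout between these lines. TMM factors moved the median log2 ratio of all genes in 2i/LIF against serum/LIF from -0.02 to 0.27, and those of the libraries labelled JupLow and JupHigh against the serum control to 0.19 and 0.15. The members moved with it in 2i/LIF: Atf4 to 1.10, Psat1 to 0.96 and Sesn2 to -1.38. No ratio of a member whose interval left out 0 changed sign under any of the 9 settings, and genes of the lists were not run under them. All barcodes, a total without overlapping genes and the removal of endoderm-marked cells were chosen after seeing the data. The share of cells with a member UMI, thinned to 2000 UMIs and unthinned, was 62.4% and 66.1% in the serum control, 71.2% and 76.6% in 2i/LIF, 51.1% and 46.4% in gel, 47.2% and 47.6% in the library labelled JupLow and 52.3% and 49.2% in that labelled JupHigh. Depth limits Ddit3, Atf3, Trib3 and Chac1 in every single-cell library, and all members in gel.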
